A study of Mus musculus with 16 samples.

Results

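The genes described here encode the 3 large classes of enzymes that attach a polar group to steroids, bile acids, lipid peroxidation products and foreign compounds: UDP-glucuronosyltransferases (Ugt), sulfotransferases (Sult) and glutathione S-transferases, soluble (Gst) or bound to membranes (Mgst). They were chosen by symbol alone, as every probe set whose annotated symbol began with Ugt1a, Ugt2a, Ugt2b, Ugt3a, Sult, Gsta, Gstm, Gstp, Gstt, Gsto, Gstz, Gstk or Mgst, without pseudogenes. The rule took 55 of 22206 probe sets, and each of the 55 genes had 1 probe set. They were 8 Ugt2 and 2 Ugt3a genes, 21 Sult genes, 21 soluble Gst genes and 3 Mgst genes. The soluble Gst genes comprised 3 Gsta, 7 Gstm, 3 Gstp, 4 Gstt, 2 Gsto, 1 Gstz and 1 Gstk gene. No probe set named Ugt1a was among the named probe sets, so that family was not analysed here.

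The study measured RNA on Affymetrix mouse arrays in the liver and in eWAT, a white adipose tissue, of male C57BL/6J mice aged 14 weeks. CT offspring had control parents, and F1 offspring had a control mother and an obese father. Before mating, the fathers were fed from the age of 8 weeks for 12 weeks, with chow for CT and with a high-fat diet (45% lipids) for F1. With both offspring groups in both tissues there were 4 groups of 4 libraries, and a library is called by its tissue, offspring group and replicate number, such as liver CT 1. The labels call them biological replicates but name no father, litter or cage, so any animals with a common father or litter entered the tests as independent. The labels name no transgene and no treatment of the offspring themselves.

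Conjugation makes a substrate more soluble in water and prepares it for export in bile or urine. Ugt enzymes sit in the endoplasmic reticulum and transfer a sugar from a UDP-sugar, usually glucuronic acid. Sult enzymes are cytosolic and transfer sulfate from the donor PAPS, and Gst enzymes join glutathione to reactive electrophiles. The liver is the main site of all 3 reactions, while adipose tissue is known for sulfation of estrogens by Sult1e1 and for glutathione conjugation of lipid aldehydes by Gsta4.

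Levels are deposited log2 RMA values (RMA corrects background, normalizes and summarises the probes of a probe set), so a difference of 1 is a doubling. A gene was tested where its mean over the libraries compared reached the 25th percentile of all probe sets, which was 3.9 in liver and 3.47 in eWAT, and a gene was called at a Benjamini-Hochberg adjusted p under 0.05 over all genes tested with limma. The 8 adipocyte marker genes on the array had a median of 18.13 to 18.4 in the eWAT libraries and 4.73 to 5.61 in the liver libraries, and the 12 hepatocyte markers had a median of 19.78 to 19.91 in liver. Some libraries also held transcripts of other tissues. In eWAT the hepatocyte marker median was 8.7, 7.41, 14.3 and 14.25 in CT 1 to CT 4 and 11.78, 14.26, 11.56 and 15.72 in F1 1 to F1 4. eWAT F1 1 carried seminal vesicle transcripts, with Svs2 at 16.22 against at most 4.88 in the other eWAT libraries. Liver F1 4 carried pancreatic transcripts, with Amy2a5 at 17.69, and liver CT 2 a little, with Amy2a5 at 9.79 against 4.96 to 6.79 in the other 6. Liver F1 1 and F1 2 had skeletal muscle marker medians of 4.85 and 4.75 against at most 3.85 in the other liver libraries. The acute-phase gene Saa1 was at 14.09 and 13.01 in liver F1 3 and F1 4 and between 5.57 and 7.88 in the other 6 liver libraries. In eWAT it was at 5.23 and 7.07 in F1 3 and F1 4 and at most 3.62 in the others. The labels do not say whether liver and eWAT libraries of the same number came from 1 mouse, and all fits took them as separate. Their deviations from the group means correlated at 0.01 to 0.04 over genes, and 7 of 8 libraries correlated best with their own number. In these bulk samples, fewer cells of a type and less RNA per cell cannot be told apart. Arrays give no read depth, and the number of arrays limits the precision of every value below.

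In RefSeq (GRCm38.p6), 11 of the 55 members have starts in a stretch of chromosome 5, in the order Ugt2b34, Ugt2b1, Ugt2b35, Ugt2b36, Ugt2b5, Ugt2b37, Ugt2a3, Ugt2b38, Sult1b1, Sult1d1 and Sult1e1. The 7 Ugt2b genes shared a level pattern, higher in every liver library than in any eWAT library, so the 100 bases before their transcription starts are printed here, 5′ to 3′ in the direction of the gene. Capitals mark the pattern GTTANANNTTAAC, a loose inverted repeat of the layout known for sites of Hnf1 homeodomain factors. Its letters are those that all 7 stretches share, so they were chosen after these sequences had been seen.
Ugt2b34 (chr5:86906938-86907037, minus strand): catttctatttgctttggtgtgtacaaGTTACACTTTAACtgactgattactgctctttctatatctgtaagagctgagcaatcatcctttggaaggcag
Ugt2b1 (chr5:86926504-86926603, minus strand): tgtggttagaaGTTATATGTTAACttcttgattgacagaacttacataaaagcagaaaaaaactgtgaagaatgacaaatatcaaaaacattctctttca
Ugt2b35 (chr5:87000760-87000859, plus strand): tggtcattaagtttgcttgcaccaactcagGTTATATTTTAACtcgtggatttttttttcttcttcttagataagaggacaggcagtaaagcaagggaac
Ugt2b36 (chr5:87092556-87092655, minus strand): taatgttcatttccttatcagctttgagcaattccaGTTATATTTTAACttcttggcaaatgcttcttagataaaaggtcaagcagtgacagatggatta
Ugt2b5 (chr5:87140341-87140440, minus strand): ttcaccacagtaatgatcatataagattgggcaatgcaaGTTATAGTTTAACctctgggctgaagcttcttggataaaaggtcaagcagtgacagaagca
Ugt2b37 (chr5:87254789-87254888, minus strand): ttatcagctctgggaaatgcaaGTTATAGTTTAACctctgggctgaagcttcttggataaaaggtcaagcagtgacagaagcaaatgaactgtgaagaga
Ugt2b38 (chr5:87424204-87424303, minus strand): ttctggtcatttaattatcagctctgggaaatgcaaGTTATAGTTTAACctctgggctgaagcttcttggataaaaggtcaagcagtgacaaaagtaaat
The pattern began between 89 bases (Ugt2b1) and 61 bases (Ugt2b5) before the start, on the strand of the gene. Searched on both strands of the 300-base RefSeq windows (250 bases before to 50 after a start), it was found in 30 of 32851 windows, or 0.0913%. Among the 48 members with such a window it was found in 8, the 7 Ugt2b genes and Ugt3a1. The 7 Ugt2b hits follow from the way the letters were chosen and are no support for a link with level. Ugt2a3, also higher in every liver library than in any eWAT library, did not hold the pattern. Ugt2b5, Ugt2b37 and Ugt2b38 share a long stretch after the capitals, and close relatives such as these may also share probe signal, so no value below can be assigned to 1 copy with certainty. Gsta4, Gstt2, Sult2a1, Sult2a2, Sult2a7, Sult4a1 and Ugt3a2 were not matched to a window.

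Ugt2b34, a glucuronosyltransferase of the cluster, had levels of 15.84, 15.72, 15.93 and 15.5 in liver CT 1 to CT 4 and 3.07, 3.08, 6.43 and 6.9 in eWAT CT 1 to CT 4. Every liver library lay above every eWAT library, and the difference, liver minus eWAT, was 10.88 ± 0.81 (SE, n = 4 against 4, limma adjusted p = 4.67e-07). Ugt2a3, the gene of the cluster with a Ugt2a symbol, was at 14.76 to 15.6 in liver CT and 3.38 to 6.28 in eWAT CT (difference 10.65 ± 0.53, adjusted p = 1.76e-08). Ugt3a2, of the family that uses other UDP-sugars than glucuronate, was at 17.62 to 17.76 in liver CT and 5.47 to 8.22 in eWAT CT (difference 10.74 ± 0.54, adjusted p = 2.14e-08). All 10 Ugt genes tested were higher in liver than in eWAT of CT offspring, from 3.74 (Ugt2b37) to 10.88, with a median of 9.89. The lowest eWAT values lie under the brightness threshold, so these differences also depend on the background signal and are not given as folds.

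Over all 46 members tested in this tissue comparison, 39 were called, 34 higher and 5 lower in liver, with a median difference of 2.67. The background is large: 75.2% of the 14755 genes tested were called, 17.9% higher and 57.3% lower in liver, and their median difference was -0.83. The deposited values of the tissues look separately normalized (sorted values of a liver and an eWAT library differed by up to 1.39 to 1.71, against at most 0.2 within liver and 0.53 within eWAT). Of the genes called, 23.8% were higher in liver in the deposited values and 47.7% after quantile normalization of all libraries, which moved the median of all genes to -0.04. Under that scaling 34 members were called higher in liver and 6 lower, and the sign turned for Gstz1 (0.12 to -0.85, called only after quantile normalization) and for Sult2a1 (-0.29 to 0.31, called in neither). In F1 offspring the same comparison called 31 members higher and 6 lower in liver, beside 75.6% of all genes tested (18.3% higher and 57.3% lower). Gstz1 was the member called lower in liver there and not in CT, at -0.62 ± 0.17 (adjusted p = 0.00601); the change from CT to F1 in this difference was not called (adjusted p = 0.217). Each of the 4 eWAT libraries of that fit held hepatocyte transcripts, as given above.

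**Figure D1:**
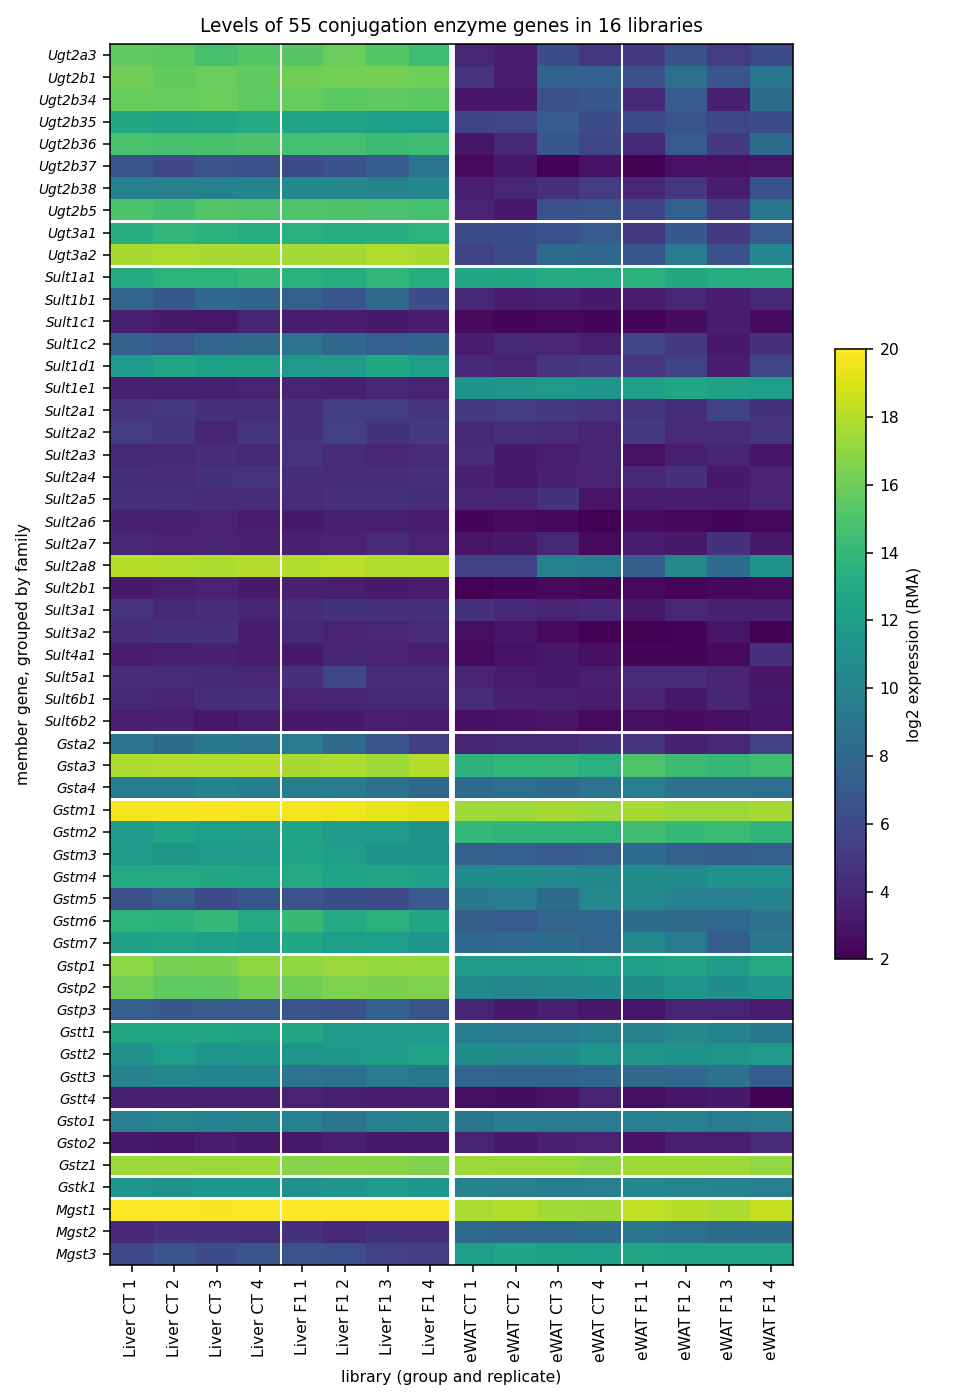
Heat map of the deposited log2 RMA level of the 55 members (rows of the map, grouped by family) in the 16 libraries (columns, grouped by tissue and offspring group). The Ugt genes and Sult2a8 are bright in the 8 liver libraries, Sult1e1, Mgst2, Mgst3, Gstm2 and Gstm5 are brighter in the 8 eWAT libraries, and most Sult genes are dark in both tissues.

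The sulfotransferases were split between tissues. Sult1e1, the estrogen sulfotransferase, was at 11.26, 11.37, 11.65 and 11.44 in eWAT CT 1 to CT 4 and at 3.58, 3.5, 3.51 and 3.78 in liver CT 1 to CT 4. All liver values of Sult1e1 in CT lay under the liver brightness threshold, and the difference of -7.84 ± 0.16 (adjusted p = 4.8e-11) had the smallest p of the members in this comparison. Sult1d1, which sulfates catecholamines and related amines, showed the opposite pattern, with a start 22.6 kb away: 11.66, 12.58, 12.19 and 12.3 in liver CT and 4.09, 3.78, 4.77 and 4.98 in eWAT CT (difference 7.78 ± 0.3, adjusted p = 2.65e-09). The 100 bases before both starts are set side by side because these neighbours were called in opposite directions, and capitals mark GTTAAT, one arm of such an inverted repeat, searched on both strands and found in 7.1% of all windows.
Sult1d1 (chr5:87569007-87569106, minus strand): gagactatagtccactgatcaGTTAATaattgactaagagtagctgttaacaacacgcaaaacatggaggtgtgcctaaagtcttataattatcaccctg
Sult1e1 (chr5:87591612-87591711, minus strand): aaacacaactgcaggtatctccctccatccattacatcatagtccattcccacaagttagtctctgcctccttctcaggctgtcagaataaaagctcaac
The letters begin 79 bases before the start of Sult1d1 and are not in the window of Sult1e1. Of the 48 members with a window 10 held them: Gsta3, Sult1a1, Sult1d1, Sult2a3, Sult2a4, Sult2a5, Sult2a6, Sult3a2, Ugt2a3 and Ugt3a1. Of these, Sult2a3 to Sult2a6 and Sult3a2 were dim in both tissues. Sult1b1, which was higher in liver, did not hold the letters. Whether they bear on the level in either tissue was not tested.

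Sult2a8, a bile acid sulfotransferase of mouse liver, was at 17.81 to 18.1 in liver CT and at 5.48, 5.55, 9.89 and 9.61 in eWAT CT 1 to CT 4 (difference 10.33 ± 0.95, adjusted p = 2.52e-06). Sult1b1, which sulfates thyroid hormones and phenols, was 4.06 ± 0.26 higher in liver, and Sult1c2 was 3.96 ± 0.25 higher. Sult1a1, the general phenol sulfotransferase, was at 13.01 to 14.04 in liver CT and 12.66 to 13.04 in eWAT CT; the groups overlapped, and the difference was 0.74 ± 0.23 (adjusted p = 0.0123). The remaining Sult genes were dim. Sult1c1, Sult2a6, Sult2a7, Sult2b1, Sult4a1 and Sult6b2 were left out of the tests in both tissues, Sult1e1 in liver alone and Sult3a2 in eWAT alone. Sult2a1 to Sult2a5, Sult3a1, Sult5a1 and Sult6b1 passed the threshold with values between 2.83 and 5.84 in the 16 libraries. Sult2a1 and Sult3a1 are known in mouse liver mainly from females, and all animals here were male.

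The glutathione transferases ran in both directions. Of 22 tested Gst and Mgst genes, 17 were called higher and 4 lower in liver of CT offspring, with a median of 2.29. Gsta3, an alpha class enzyme, was at 17.76, 17.84, 17.89 and 18.03 in liver CT and at 13.6, 13.82, 13.87 and 13.44 in eWAT CT, an 18.3-fold higher level in liver (4.2 ± 0.16, adjusted p = 3.14e-09). Gstp1, the main pi class enzyme, was 27.8-fold higher in liver (4.8 ± 0.2) and Gstp2 40.8-fold (5.35 ± 0.22). Gstm3, of the mu class, was 4.33 ± 0.16 higher in liver (adjusted p = 1.89e-09) and Gstm6 6.03 ± 0.27. After quantile normalization of all libraries the folds were 14.5 for Gsta3, 31.5 for Gstp1 and 55.2 for Gstp2. The differences of Gstm3 and Gstm6 were then 5.4 and 6.85, so the folds of all these genes depend on the scaling.

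The 3 membrane-bound enzymes did not follow one pattern. Mgst3, which acts on lipid hydroperoxides and leukotriene precursors, was at 5.95, 6.76, 6.22 and 6.65 in liver CT and at 12.01, 12.53, 12.28 and 12.18 in eWAT CT, a difference of -5.86 ± 0.22 (adjusted p = 2.17e-09), or -4.77 after quantile normalization. Mgst2, an enzyme with leukotriene C4 synthase activity, was at 3.9 to 4.46 in liver CT and 8.02 to 8.34 in eWAT CT, a difference of -3.86 ± 0.18 (adjusted p = 1.09e-08), or -3.05 after quantile normalization. Its liver values lie near the brightness threshold, so no fold is given. Mgst1, the abundant microsomal enzyme, was higher in liver (2.29 ± 0.16), but its 8 liver values of 19.92 to 19.93 are the highest the scale reaches, so differences there are compressed, and after quantile normalization the difference was 1.14. Gstm2 and Gstm5 were the other members called lower in liver, with differences of -1.66 ± 0.18 and -2.74 ± 0.39, or -1.23 and -1.41 after quantile normalization. Gsto1, a thiol transferase, and Gstk1, a mitochondrial and peroxisomal enzyme, were 0.6 ± 0.19 and 1.6 ± 0.17 higher in liver, and 1.75 and 2.61 after quantile normalization. Gsto2 and Gstt4 were dim in liver, and Gstt4, Gstp3 and Ugt2b37 in eWAT, and these were not tested there.

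Within eWAT, most members with a large liver minus eWAT difference moved with the hepatocyte transcripts. In 9 of the 13 members with a liver minus eWAT difference over 5 in CT, the 4 libraries with the highest hepatocyte medians (CT 3, CT 4, F1 2 and F1 4) all lay above the other 4. These were Sult2a8, Ugt2b1, Ugt2b34, Ugt2b35, Ugt2b36, Ugt2b38, Ugt2b5, Ugt3a1 and Ugt3a2, and the 4 without that order were Gstm6, Gstp2, Sult1d1 and Ugt2a3. None of the other 42 members (0 of 42) had that order. It was not counted over all genes, so it is not given as particular to these enzymes. Sult2a8 was at 5.48 and 5.55 in CT 1 and CT 2, 7.3 and 8.32 in F1 1 and F1 3, 9.89 and 9.61 in CT 3 and CT 4, and 10.45 and 11.15 in F1 2 and F1 4. Without eWAT CT 3 and CT 4, the median liver minus eWAT difference of the 10 Ugt genes was 11.39 in place of 9.89. Whether the Ugt2, Ugt3a and Sult2a8 signal in eWAT came from liver RNA was not tested.

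**Figure D2:**
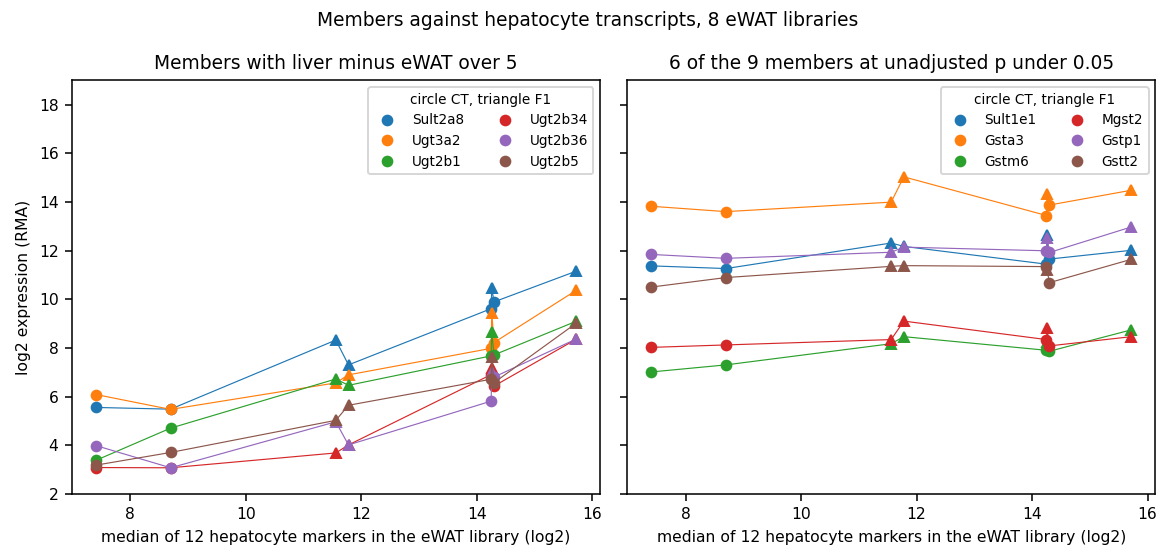
Level of members (log2 RMA, vertical axis) in the 8 eWAT libraries against the median of 12 hepatocyte markers in the same library (horizontal axis, log2), with circles for CT and triangles for F1. Sult2a8 and the Ugt genes on the left run from 3.07 to 6.08 in CT 1 and CT 2 up to 8.35 to 11.15 in F1 4. On the right, Sult1e1, Gsta3, Mgst2, Gstp1 and Gstt2 span at most 1.59 over all 8 libraries, and Gstm6 spans 1.73.

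In liver, the comparison of F1 with CT offspring called none of the 46 members tested (0 of 46), beside 0.156% of the 14722 genes tested. The theta and zeta class genes Gstt3 and Gstz1 came closest, both lower in mean in F1. At an unadjusted p under 0.05 stood 8 members, 3 higher and 5 lower in F1, or 17.4% of the members beside 9.14% of all genes (4.48% higher and 4.67% lower). In 4 members, or 8.7%, the groups did not overlap, beside 5.37% of all genes, and all 4 were lower in F1, beside 2.69% of all genes. The median difference of the members was -0.10 beside -0.00 over all genes, and 16 of 46 lay above 0, or 34.8% beside 49.6% of all genes. The median was -0.03 without CT 2, and 21 of 46 lay above 0 without F1 4.

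Gstt3, a theta class enzyme, was at 9.98, 10.42, 10.14 and 10.13 in liver CT 1 to CT 4 and at 8.89, 8.55, 9.44 and 9.21 in F1 1 to F1 4. Every F1 library lay below every CT library, with a difference of -1.14 ± 0.21 (SE), 2.21-fold lower (limma adjusted p = 0.0876). Gstz1, the maleylacetoacetate isomerase of tyrosine breakdown, was at 17.39, 17.37, 17.29 and 17.38 in CT and at 16.74, 16.82, 16.82 and 16.49 in F1. Its groups were also apart, by -0.64 ± 0.14 or 1.56-fold (adjusted p = 0.156). With a trended and robust variance both genes were called, at adjusted p = 0.0267 for Gstt3 and 0.0103 for Gstz1, and the share of all genes called was 0.503% in place of 0.156%. The difference of Gstt3 was -0.99 to -1.28 with each of the 8 libraries left out in turn, and that of Gstz1 -0.56 to -0.67. Without the libraries that held pancreatic or muscle transcripts (CT 2, F1 1, F1 2 and F1 4), which left F1 3 as the only F1 library, the values were -0.64 for Gstt3 and -0.53 for Gstz1.

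Gstt1, the theta enzyme that acts on small halogenated compounds, was at 12.56, 12.65, 12.66 and 12.47 in CT and at 12.66, 11.67, 11.8 and 11.65 in F1. F1 1 stood with the CT libraries and the other 3 F1 libraries below all of them, and the difference was -0.64 ± 0.23 (adjusted p = 0.448). Ugt2b35 was at 12.93, 12.51, 12.82 and 13.04 in CT and at 12.5, 12.38, 12.17 and 12.12 in F1, where F1 1 and CT 2 were only just apart (-0.53 ± 0.17, adjusted p = 0.361). Ugt2b36 also had all F1 libraries (14.36 to 14.66) under all CT libraries (14.7 to 14.99), with a difference of -0.29 ± 0.15 (unadjusted p = 0.0754). Of the other Ugt genes, Ugt2b38 was higher in mean in F1, by 0.34 ± 0.15 (adjusted p = 0.522). For Ugt2b5 the difference was -0.01 with a 95% interval of -0.39 to 0.36, and for Sult2a8 -0.00 with an interval of -0.31 to 0.31. None of the 14 Sult genes tested had an unadjusted p under 0.05 in liver.

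The pi class pair was higher in mean in F1. Gstp1 was at 16.92, 16.33, 16.35 and 17.01 in CT and at 17.0, 17.29, 17.21 and 17.2 in F1 (0.52 ± 0.19, adjusted p = 0.472). Gstp2 was at 16.2, 15.61, 15.61 and 16.27 in CT and at 16.07, 16.51, 16.44 and 16.51 in F1 (0.46 ± 0.2, adjusted p = 0.542). In both genes CT 2 and CT 3 were low, CT 1 and CT 4 were near the F1 libraries, and the groups overlapped. Because Gstp1 and Gstp2 are near-identical copies, the 2 values may not be independent. Gstp3 was lower in mean in F1 (-0.32 ± 0.24).

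Gsta2 and Gsta4, of the alpha class, were lowest in liver F1 3 and F1 4. Gsta3, the other alpha gene, was lowest in F1 3 (17.43) but at its highest liver value, 18.03, in F1 4 and CT 4. Gsta2 was at 9.1, 8.39, 9.2 and 9.1 in CT and at 9.39, 8.23, 6.65 and 5.29 in F1, so that 2 F1 libraries matched CT and the other 2 lay far below (-1.56 ± 0.72, unadjusted p = 0.0566). Gsta4, which conjugates the lipid peroxidation product 4-hydroxynonenal, was at 9.58, 9.62, 10.05 and 9.59 in CT and at 9.64, 9.4, 8.68 and 8.04 in F1 (-0.77 ± 0.32, adjusted p = 0.512). Gstm1, near the top of the scale, had its lowest liver values of 19.33 and 19.21 in the same F1 3 and F1 4, as had Mgst3 with 5.4 and 5.16. Without F1 3 and F1 4, a choice made after seeing these values, the differences were -0.14 for Gsta2, -0.19 for Gsta4, -0.14 for Gstm1 and 0.12 for Mgst3, while Gstt3 stood at -1.45. F1 3 and F1 4 were also the libraries with high Saa1, as given above, and the part of that state in these levels was not tested. The genes lowest in F1 3 and F1 4 were picked after their values were seen. Such genes were not counted over all members or over all genes.

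**Figure D3:**
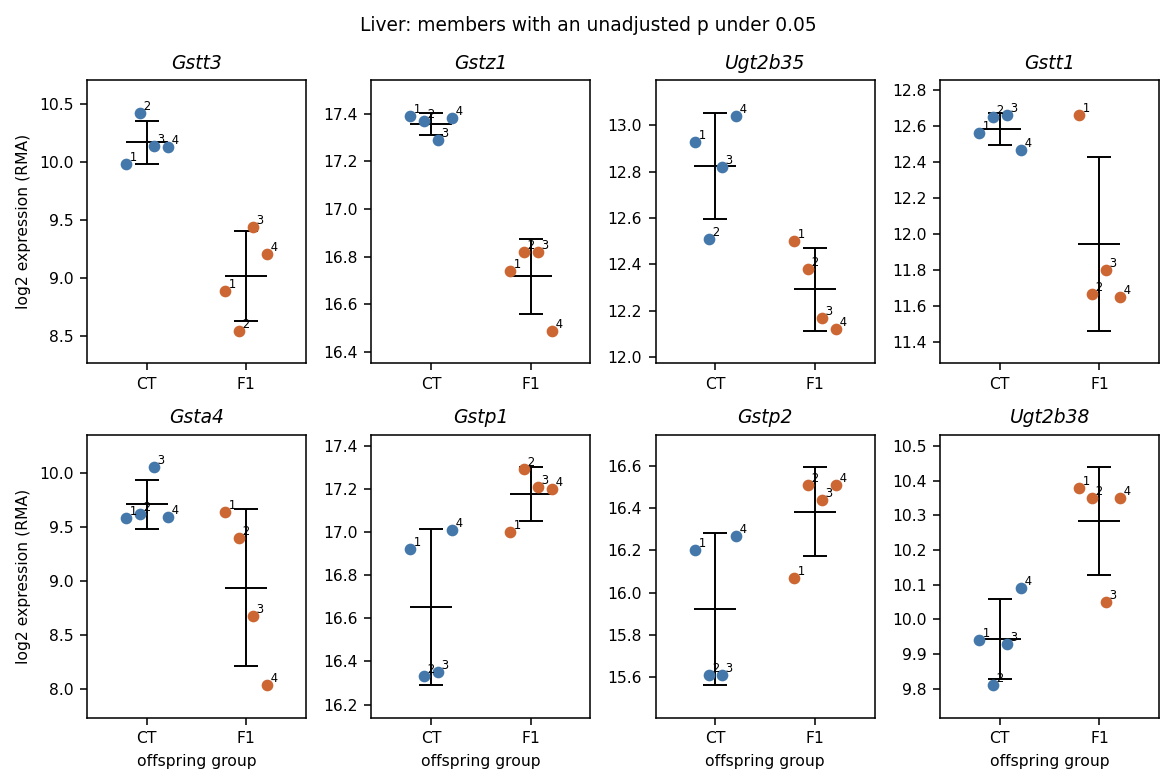
Level (log2 RMA, vertical axis, scaled to each gene) in liver of CT and F1 offspring for the 8 members with an unadjusted p under 0.05. Points are libraries with their replicate number, and bars are the mean and SD of 4 libraries. F1 lies wholly below CT for Gstt3, Gstz1 and Ugt2b35, and the groups overlap for the other 5 genes.

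By class, the 22 Gst and Mgst genes tested had a median of -0.23 in liver, with 15 below 0 and 7 above. The median was -0.13 to -0.31 with each library left out in turn, and -0.14 without F1 3 and F1 4. The counts at an unadjusted p under 0.05 rested on few libraries: 5 members lower became 10 without F1 1 and 3 without F1 4, and 3 members higher became 0 without CT 2, CT 3 or F1 2 and 1 without F1 4. The Ugt genes had a median of -0.05 and the Sult genes of -0.03.

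In eWAT, no member and no gene at all was called between F1 and CT offspring (0 of 45 members and 0 of 14773 genes, 0%, with limma). At an unadjusted p under 0.05 stood 9 members, 8 higher and 1 lower in F1, or 20% beside 9.99% of all genes (4.97% higher and 5.02% lower). The groups did not overlap in 3 members, all higher in F1, or 6.67% beside 5.92% of all genes without overlap and 2.9% with F1 higher. The F1 mean was above the CT mean in 38 of 45 members, or 84.4% beside 49.5% of all genes, and the median difference was 0.33 beside -0.00. Neither share has a test, since the members are not independent of each other.

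Sult1e1 was at 11.26, 11.37, 11.65 and 11.44 in eWAT CT 1 to CT 4 and at 12.17, 12.62, 12.31 and 12.01 in F1 1 to F1 4. All 4 F1 libraries lay above all CT libraries, with a difference of 0.85 ± 0.18 (SE), 1.8-fold higher (limma adjusted p = 0.362). Its difference was 0.73 to 0.94 with each library left out in turn. With the hepatocyte marker median as a covariate the difference was 0.8, and without the 4 libraries richest in hepatocyte transcripts it was 0.92.

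Gstm6 was at 7.3, 7.01, 7.86 and 7.9 in CT and at 8.46, 8.24, 8.17 and 8.74 in F1, again without overlap (0.88 ± 0.24, adjusted p = 0.383). CT 3 and CT 4 were nearest to F1, and the difference was 0.65 with the hepatocyte covariate. Gsta3 was at 13.6, 13.82, 13.87 and 13.44 in CT and at 15.03, 14.32, 13.99 and 14.48 in F1, with F1 1 the highest and no overlap (0.77 ± 0.23, adjusted p = 0.389). Its difference was 0.8 with the covariate and 0.58 without F1 1, the library with seminal vesicle transcripts.

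Among the membrane-bound enzymes, Mgst2 was at 8.12, 8.02, 8.08 and 8.34 in CT and at 9.1, 8.8, 8.34 and 8.46 in F1 (0.54 ± 0.2, adjusted p = 0.42). CT 4 and F1 3 had the same value, and the other F1 libraries lay above every CT library. Mgst1 was at 17.7, 17.92, 17.52 and 17.4 in CT and at 18.31, 18.1, 17.76 and 18.45 in F1 (0.52 ± 0.2, adjusted p = 0.432), with F1 3 inside the CT range. Gstt2 was at 10.89, 10.5, 10.68 and 11.34 in CT and at 11.38, 11.22, 11.35 and 11.64 in F1 (0.55 ± 0.21, adjusted p = 0.43), where CT 4 overlapped F1. Gstp1 and Gstp2 were higher in mean in F1 by 0.53 ± 0.23 and 0.55 ± 0.21 (adjusted p = 0.487 and 0.432), and by 0.37 and 0.39 with the hepatocyte covariate. Sult3a1, a dim gene at 3.82 to 4.54 in CT and 3.26 to 3.9 in F1, was the 1 member lower in mean in F1 at that threshold (-0.52 ± 0.21, adjusted p = 0.444).

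**Figure D4:**
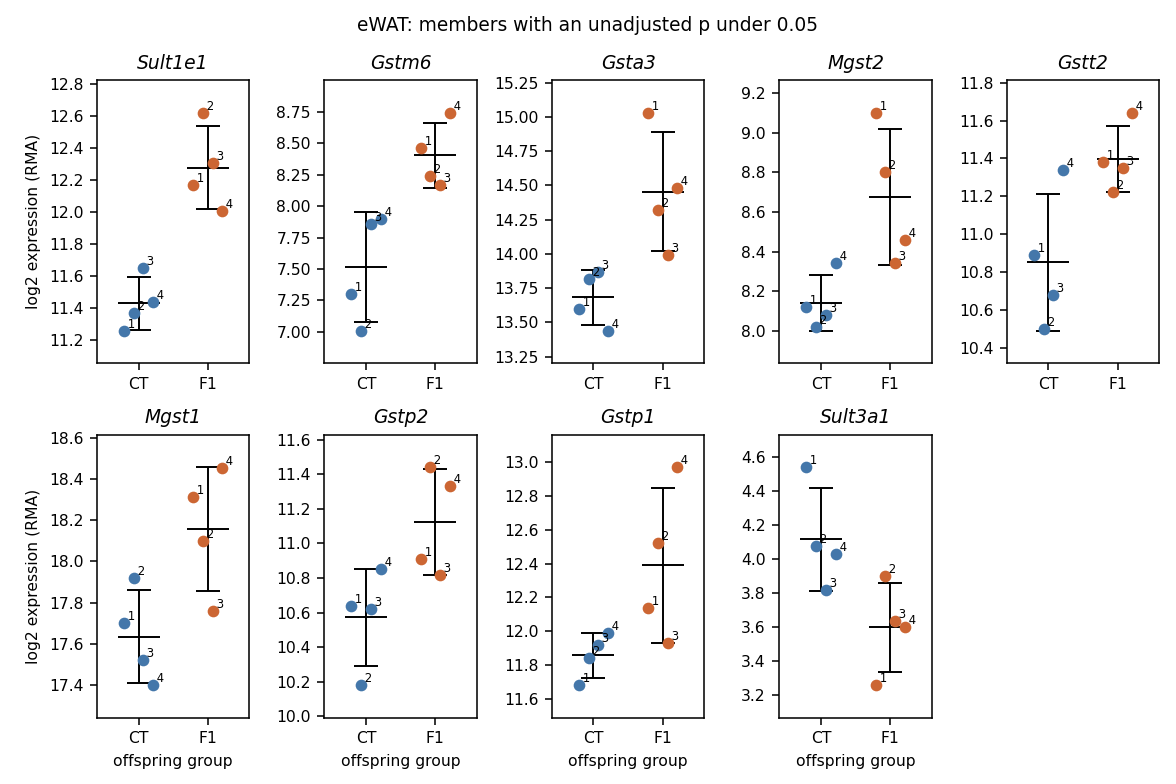
Level (log2 RMA, vertical axis, scaled to each gene) in eWAT of CT and F1 offspring for the 9 members with an unadjusted p under 0.05. Points are libraries with their replicate number, and bars are the mean and SD of 4 libraries. F1 lies wholly above CT for Sult1e1, Gstm6 and Gsta3, the groups overlap for the other 6, and Sult3a1 has the lower mean in F1.

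The largest mean differences in eWAT belonged to the liver genes and had wide errors. Ugt2b1 was at 4.7, 3.38, 7.71 and 7.67 in CT and at 6.46, 8.65, 6.72 and 9.09 in F1 (1.86 ± 1.03, unadjusted p = 0.103), and the groups overlapped. Ugt2b5 differed by 1.78 ± 1.06 and Sult2a8 by 1.67 ± 1.23. The 12 hepatocyte markers differed in the same direction, with all 12 above 0 and a median of 1.98. With the hepatocyte marker median as a covariate, an alternative chosen after seeing the data, Ugt2b1 stood at 0.55, Ugt2b5 at 0.47, Sult2a8 at 0.13 and Ugt2b34 at -0.59 in place of 0.93. The median of the 9 Ugt genes went from 1.04, with 8 above 0, to -0.01, with 4 above 0. Without the covariate, that median was 0.41 without F1 4, 0.56 without CT 1, 0.63 without CT 2 and 1.6 without CT 3. Leaving out the 4 hepatocyte-rich libraries did not give matched groups. CT 1 and CT 2 had hepatocyte medians of 8.7 and 7.41, and F1 1 and F1 3 of 11.78 and 11.56. Ugt2b1 then differed by 2.55. The hepatocyte median of every F1 library lay above those of CT 1 and CT 2. Most Ugt genes also followed that median within eWAT, as given above. The covariate fit thus cannot tell a group difference in these genes from a difference in hepatocyte transcripts.

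The Gst and Mgst genes stood mostly above 0 with and without the same covariate. Of 22 tested, 21 had a higher mean in F1 with a median of 0.33, and with the covariate 21 of 22 had, with a median of 0.38. Without the 4 hepatocyte-rich libraries the count was 21 of 21 with a median of 0.41. It was 20 of 23 with a median of 0.27 without F1 1 and F1 4, and 19 of 22 at the lowest with single libraries left out. Other markers moved with the groups too. Of 9 macrophage markers tested, 8 had a lower mean in F1 (median -0.30, 3 at an unadjusted p under 0.05), and so had 5 of 6 skeletal muscle markers (median -0.69, again 3). The macrophage medians were 12.1 to 12.76 in CT and 11.85 to 12.25 in F1. The skeletal muscle medians were 5.66 and 5.64 in CT 1 and CT 4 and 3.58 to 4.28 in the other 6 eWAT libraries. The part of these cell types in the Gst and Mgst values was not tested. Gsto2 was the gene with a lower mean in F1 (-0.14 ± 0.26), and Gstm1 had the smallest positive difference (0.04, 95% interval -0.31 to 0.38). Gstm7, at 10.47 in F1 1 and 7.31 to 9.36 in the other eWAT libraries, differed by 0.95 ± 0.55 and by 0.22 without F1 1 and F1 4. The count of 8 members higher at an unadjusted p under 0.05 became 4 without CT 2 and 3 without F1 1 and F1 4. The 1 lower became 0 without CT 1, CT 2, F1 1, F1 3 or F1 4 and 2 without CT 4.

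The difference between the tissues was tested directly, as the F1 minus CT difference in liver less that in eWAT. No member was called (0 of 46, beside 0.0813% of 14760 genes). At an unadjusted p under 0.05 stood 11 members, 1 above 0 and 10 below, or 23.9% beside 9.88% of all genes (4.91% above and 4.97% below). All 22 Gst and Mgst genes tested were below 0, with a median of -0.61 beside -0.00 over all genes, of which 49.6% lay above 0. No test was made of that count. It was 20 of 22 at the lowest with single libraries left out (liver CT 1, liver CT 4, liver F1 1 or eWAT F1 2). With no dim filter it was 22 of 24. These counts hold members with no usable level in 1 tissue: Sult1e1 had a mean under the brightness threshold in liver, Gstp3 and Ugt2b37 in eWAT, and Mgst1 was at the top of the scale in liver. Over the 42 members that passed the threshold in both tissues, without Mgst1, 9 had an unadjusted p under 0.05, 1 above 0 and 8 below, or 21.4% beside 9.87% of 13396 genes. The 20 Gst and Mgst genes among them were all below 0, with a median of -0.67. Gstt3 stood at -1.36 ± 0.36 (adjusted p = 0.21), Gstz1 at -0.74 ± 0.2 (adjusted p = 0.217), Gsta3 at -0.93 ± 0.29 (adjusted p = 0.311) and Sult1e1 at -0.71 ± 0.23 (adjusted p = 0.333). Sult3a1 was the member above 0 (0.78 ± 0.29, adjusted p = 0.407). For Gstp1 and Gstp2, whose means were higher in F1 in both tissues, the difference between tissues was -0.01 (95% interval -0.66 to 0.64) and -0.09 (-0.73 to 0.54). Gstt3 was called without eWAT F1 4 (-1.63, adjusted p = 0.0449, beside 0.108% of all genes), and Gstz1 with a trended and robust variance (adjusted p = 0.044, beside 0.244%). The 10 members below 0 became 6 without liver CT 3.

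**Figure D5:**
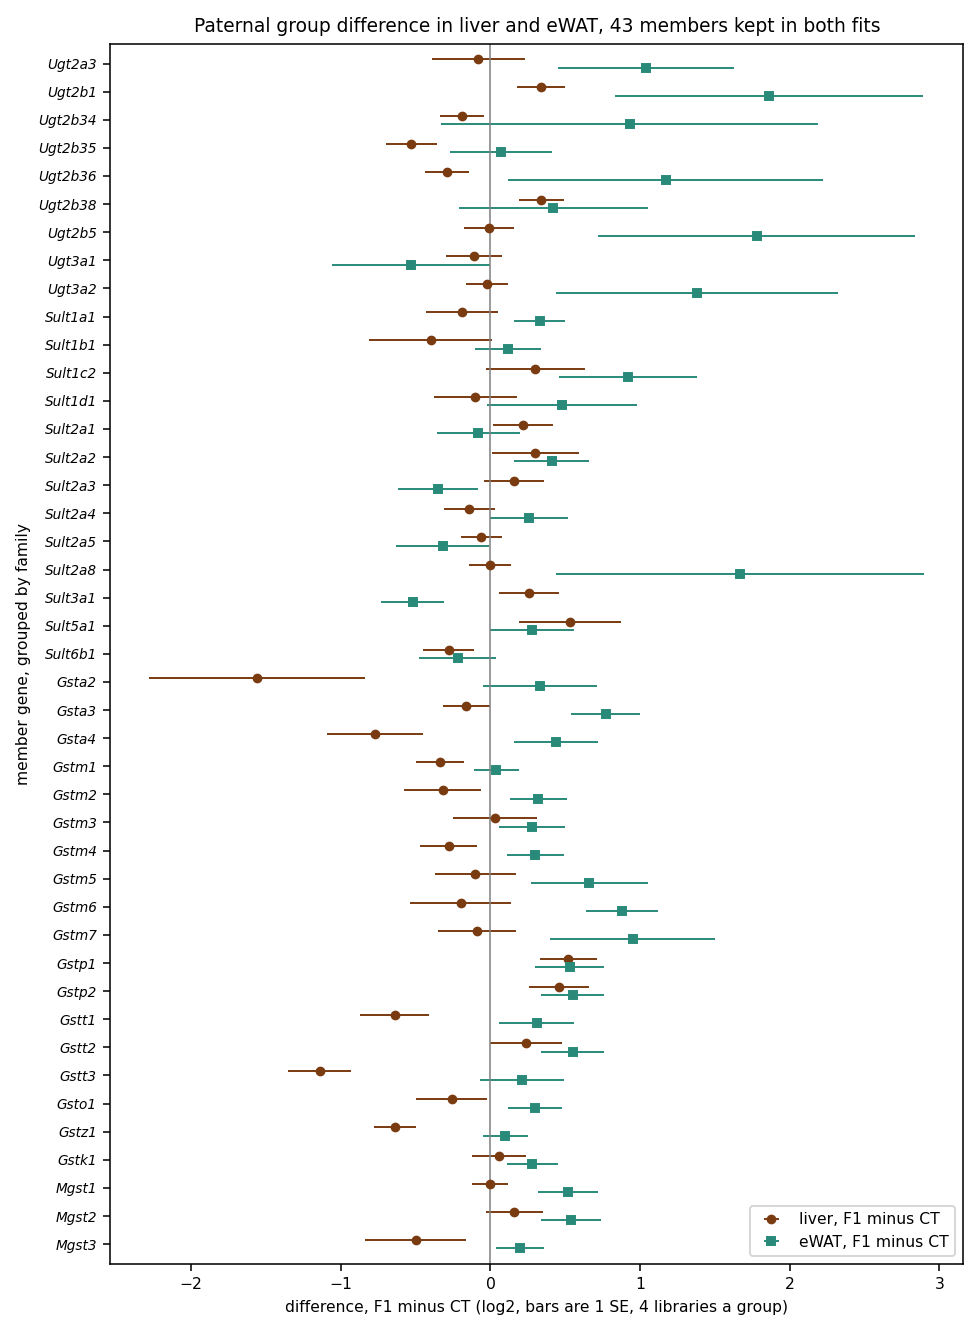
F1 minus CT difference (log2, horizontal axis) in liver (circles) and eWAT (squares) for the 43 members tested in both tissues, with bars of 1 SE (4 libraries a group). The eWAT value lies right of the liver value for 37 of the 43, the Ugt genes have the widest eWAT bars, and Gstp1 and Gstp2 are right of 0 in both tissues.

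The supply and disposal steps around the 3 reactions were followed with lists of genes that are no members. In liver, 1 listed gene was called: Nnmt, which methylates nicotinamide, among 11 other conjugation enzymes, at 10.37 to 11.41 in CT and 12.5 to 13.06 in F1 (1.72 ± 0.24, adjusted p = 0.0335). None was called among 4 genes for UDP-glucuronate, 9 for the sulfate donor, 12 for glutathione, 15 for export and breakdown of conjugates, 6 for uptake, 14 regulators and 12 marker targets of those regulators. Abcc3, which exports glucuronides into blood, was at 17.04 to 17.21 in CT and 15.95 to 16.53 in F1 (-0.9 ± 0.17, adjusted p = 0.0966). Inmt, an amine methyltransferase, was at 12.97 to 13.63 in CT and 12.1 to 12.6 in F1 (-0.99 ± 0.2, adjusted p = 0.115). Gclc, the catalytic subunit of glutathione synthesis, was at 16.48 to 16.93 in CT and at 16.52, 16.36, 15.54 and 15.54 in F1 (-0.68 ± 0.25, adjusted p = 0.476), low only in F1 3 and F1 4. Nfe2l2, the regulator of many Gst genes, had a difference of -0.47 ± 0.19 (adjusted p = 0.5). Other listed genes had a higher mean in F1. Among the regulators, Rxra (0.43 ± 0.15, adjusted p = 0.414) and Esr1 (0.9 ± 0.33, adjusted p = 0.463) had a smaller p than Nfe2l2. Of the 14 regulators, 8 had a higher and 6 a lower mean in F1. Abcc4 of the export list and Slc22a7 of the uptake list each differed by 0.73 ± 0.26 (adjusted p = 0.44 and 0.454).

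In eWAT no listed gene was called, and 49.5% of all genes tested had a higher mean in F1. The lists did not share a direction. UDP-glucuronate supply had 1 gene higher and 3 lower in mean in F1 (median -0.13). Export and breakdown had 7 higher and 7 lower (median 0.02). The counts were 5 and 0 for uptake, 8 and 5 for the regulators, and 8 and 3 for the other conjugation enzymes. For the sulfate donor list, 7 of 9 genes had a higher mean in F1, among them Bpnt1, which clears the product of sulfation (0.58 ± 0.2, adjusted p = 0.412), and Csad, of sulfur amino acid metabolism (0.63 ± 0.22, adjusted p = 0.412). Of the 12 glutathione genes tested, 11 had a higher mean in F1 with a median of 0.22, and the exception was Gss, the second enzyme of glutathione synthesis (-0.45 ± 0.2, adjusted p = 0.497). Some genes of these 2 lists were highest in F1 4, the library richest in hepatocyte transcripts. Slc26a1 was at 7.5 there and 4.32 to 5.86 in the other eWAT libraries. Cbs was at 9.57 against 7.98 to 9.19, and Cth at 8.29 against 6.54 to 8.02. The part of hepatocyte transcripts in these counts was not tested. Of the regulators, Ppara, a fatty acid receptor also abundant in hepatocytes, had the smallest p (0.97 ± 0.33, adjusted p = 0.412). Of the 11 marker targets tested, 7 had a higher and 4 a lower mean in F1, with a median of 0.20. The smallest p among them was that of Cyp1b1 (0.52 ± 0.19, limma adjusted p = 0.423). Hmox1, a target of Nfe2l2, had a difference of -0.84 ± 0.34 (adjusted p = 0.453). Most macrophage markers also had a lower mean in F1, as given above, and their part in the Hmox1 value was not tested. The promoter letters TGACNNNGC, the core of the element that Nfe2l2 binds, were found in 4 of the 48 members with a window. These were Gsta3, Gstm5, Gstm7 and Mgst1, a smaller share than the 12.4% of all windows.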

How the data were processed

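Per the submitters' processing notes, the authors made the deposited log2 values with RMA, run in Transcriptome Analysis Console 4.0. RNA from frozen tissue was column-purified and treated with DNase, and 150 ng was amplified and biotin-labelled, per the labels' protocols. Of 22206 probe sets 19572 had 1 gene symbol in the platform annotation. The brightest probe set was kept for each of 19505 symbols.

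F1 was compared with CT within each tissue, and liver with eWAT within CT, by lmFit and eBayes of limma 3.58.1 (R 4.3.3; 8 libraries a fit, 16 for the difference between tissues) on all genes whose mean reached the 25th percentile of all probe sets. P-values were Benjamini-Hochberg adjusted over all genes tested. The fit was tested on simulated data. Intervals are 95%.

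The members and lists were chosen with earlier results of these data known. The rule for named genes took up to 8 members a direction at an unadjusted p under 0.05 in each tissue, up to 6 a direction in the tissue comparison, the brightest of each family and up to 3 genes a list; further members were named after their values were seen. Alternatives were other dim filters, variance settings, array weights, quantile normalization, a replicate block, all probe sets, and libraries left out. Promoter windows came from RefSeq (GRCm38.p6). Scan dates and protein sequences were not used here.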

Additional observations from a re-analysis of the deposited data

Results flagged for a closer look

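Of 49 sets of 4 libraries examined for a sample far from the other 3, 5 held one; chance gives about 1 in 20. All were in liver. Gstt1 was at 12.66 in F1 1 against 11.65 to 11.8 in the other F1 libraries. Gstp2 was at 16.07 in F1 1 against 16.44 to 16.51. Ugt2b38 was at 10.05 in F1 3 against 10.35 to 10.38. Gsta4 was at 10.05 in CT 3 against 9.58 to 9.62 in the other CT libraries. Mgst2 was at 3.9 in CT 1 against 4.37 to 4.46.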

How the results depend on the processing

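The 37 named differences had 707 values under the alternatives. Of these values, 702 kept their direction and their side of the threshold, 5 gained a call and 0 reversed. Most of the 37 were uncalled differences named for a small unadjusted p, so staying uncalled counted as kept. Sizes could still move: in liver Ugt2b38 ran from 0.06 to 0.42 and Gsta4 from -1.06 to -0.19. Trended and robust variance called 2 members in liver (0.503% of all genes) and 1 between the tissues (0.244%), the fit of all 16 libraries called 1 in eWAT (0.169%), against 0 as reported in each. That last call, Sult1e1, pools its spread with 8 liver values whose mean lies under the brightness threshold. Members at an unadjusted p under 0.05: in liver, 3 higher became 1 with the replicate block, 0 without libraries holding pancreatic or muscle transcripts, and 0 to 4 with each replicate left out; 5 lower became 3 without F1 3 and F1 4, and 3 to 10 with each left out. In eWAT, 8 higher became 3 without F1 1 and F1 4, and 4 to 11 with each left out; 1 lower became 0 with a dim filter at the 50th percentile, trended and robust variance, the replicate block, the hepatocyte covariate, or without F1 1 and F1 4, and 2 without the 4 hepatocyte-rich libraries, and 0 to 2 with each left out. Between the tissues, 1 higher became 0 with the stricter dim filter, 10 lower became 6 to 15 and 0 calls 0 to 1 with each left out. The cause of these shifts was not tested. Members called in liver minus eWAT stayed between 33 and 45 (39 as reported, beside 75.2% of all genes tested). Replicate numbers do not pair CT with F1: deviations of same-numbered CT and F1 libraries correlated at -0.05 to 0.05 in liver and -0.26 to 0.18 in eWAT. The planned fit without eWAT libraries holding other tissues was not run, since 1 library was left; its liver counterpart had 1 F1 library, assumed to vary like the CT libraries. The hepatocyte covariate and the sets left out for hepatocyte transcripts, for F1 1 and F1 4 of eWAT, and for F1 3 and F1 4 of liver were chosen after seeing the data.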
